A study of Mus musculus with 9 samples.

Results

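The 7 genes described here encode subunits of the GABA-A receptor, 4 of the alpha class (Gabra2, Gabra3, Gabra4 and Gabra5), 2 of the beta class (Gabrb1 and Gabrb2) and the delta subunit (Gabrd). They were taken from the deposited table of hippocampal RNA-seq by gene symbol, without use of their values, and are 7 of the 18798 genes with values. All 7 passed the filter on low values, which kept the 13062 genes that reached 1 FPKM in 3 or more of the 9 libraries.

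There were 3 groups of 3 libraries. Middle-aged quercetin mice were 10 months old and were given quercetin, a plant flavonol, for 24 days. The 24 days are from the labels, and the paper states a longer course for the mice of its behaviour tests. Middle-aged control mice were 10 months old and young control mice were 8 weeks old, and both received the vehicle, PBS with DMSO. All mice were C57BL/6, and the study's methods describe them as female and the injections as given through the tail vein. The labels name no allele or transgene in any group. They do not say that each library came from 1 mouse, so the p-values measure the spread between these libraries. The study compared the groups to ask how age and quercetin affect the hippocampal transcriptome.

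GABA-A receptors are chloride channels, each built of a ring of subunits, that open when GABA binds at the interface of a beta and an alpha subunit and that carry most fast inhibition in the brain. The alpha subunit sets much of the pharmacology, and benzodiazepines bind between a gamma subunit and certain alpha subunits. In the hippocampus, receptors with the Gabra2 product are concentrated at synapses of pyramidal cells, whereas receptors with the Gabra5 product, and those that pair the Gabra4 and Gabrd products in dentate granule cells, lie largely outside synapses and carry a steady, tonic current.

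Several of these genes lie in clusters of subunit genes (GRCm38.p6). Gabra2 (chr5:70958392-71095849, minus strand), Gabra4 (chr5:71569734-71658308, minus strand) and Gabrb1 (chr5:71657921-72149572, plus strand) share a stretch of chromosome 5. Gabra5 (chr7:57407669-57591016, minus strand) lies near Gabrg3, and Gabrb2 (chr11:42419515-42632591, plus strand) near Gabra6. Gabra3 (chrX:72432676-72656919, minus strand) lies between Gabre and Gabrq. Gabrd (chr4:155384979-155398098, minus strand) stands apart from the other 6. The RefSeq spans of Gabra4 and Gabrb1 overlap head to head by 388 bases, and their GENCODE M21 exons share 46 bases, which is 0.756% of the Gabra4 exon bases and 0.332% of the Gabrb1 exon bases. The sources do not state whether strand was used in counting, so reads in the shared bases cannot be assigned to one of the pair.

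RefSeq promoter windows (250 bases before to 50 after a start, GRCm38.p6) were found for 6 of the 7 genes, 10 windows in all, and 4 are printed here. Gabra5 and Gabrb1 are shown because they had the largest fold changes between middle-aged and young control libraries, Gabra4 because its start lies next to that of Gabrb1, and Gabra2 because its level varied least. Capitals mark GC boxes, GGGCGG on either strand. The Gabra5 window is at chr7:57510010-57510309 on the minus strand, inside the gene's span, the Gabrb1 window at chr5:71657671-71657970 on the plus strand, the Gabra4 window at chr5:71658259-71658558 on the minus strand and the Gabra2 window at chr5:71095800-71096099 on the minus strand.
Gabra5: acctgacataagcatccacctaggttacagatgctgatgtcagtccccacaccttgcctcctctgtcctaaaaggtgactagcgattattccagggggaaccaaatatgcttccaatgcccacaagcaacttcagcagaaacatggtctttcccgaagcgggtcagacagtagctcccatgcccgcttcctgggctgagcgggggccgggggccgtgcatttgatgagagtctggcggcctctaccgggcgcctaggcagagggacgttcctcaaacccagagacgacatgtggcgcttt
Gabrb1: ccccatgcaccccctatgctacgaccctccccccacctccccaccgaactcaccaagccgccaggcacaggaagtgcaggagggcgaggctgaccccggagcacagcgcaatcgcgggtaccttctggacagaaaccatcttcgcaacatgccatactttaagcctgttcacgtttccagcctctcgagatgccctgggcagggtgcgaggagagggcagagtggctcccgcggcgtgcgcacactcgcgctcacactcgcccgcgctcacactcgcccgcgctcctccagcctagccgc
Gabra4: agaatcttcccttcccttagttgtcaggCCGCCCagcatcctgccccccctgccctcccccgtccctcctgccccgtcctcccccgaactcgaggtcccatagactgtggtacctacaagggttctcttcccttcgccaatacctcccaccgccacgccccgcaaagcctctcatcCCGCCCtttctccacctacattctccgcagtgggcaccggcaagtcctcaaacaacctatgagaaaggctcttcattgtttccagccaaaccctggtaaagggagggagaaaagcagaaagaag
Gabra2: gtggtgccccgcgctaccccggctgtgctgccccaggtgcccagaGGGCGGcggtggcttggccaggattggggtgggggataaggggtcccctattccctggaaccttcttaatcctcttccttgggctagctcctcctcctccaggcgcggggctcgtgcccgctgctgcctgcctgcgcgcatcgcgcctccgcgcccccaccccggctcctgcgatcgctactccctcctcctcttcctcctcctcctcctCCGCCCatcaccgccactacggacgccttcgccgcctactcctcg
The Gabra4 and Gabra2 windows hold 2 GC boxes each, and those of Gabra5 and Gabrb1 hold none. Of the windows not printed, Gabrb2 window 1 holds 1. Windows 1 and 2 of Gabra3, window 2 of Gabrb1 and windows 2 and 3 of Gabrb2 hold none. GC boxes occur in 35.7% of the 32851 promoter windows of this length. Of the other motifs searched on both strands, none of the 4 printed windows holds TGACGTCA (in 1.79% of all windows), GCGTGGGCG (0.612%), TATAAA (13.6%) or CACGTG (7.15%). The GC content is 70.0% for Gabra2, 66.0% for Gabrb1, 58.7% for Gabra4 and 56.7% for Gabra5, with a median of 52.7% over all windows. A match is a description of the letters and not a measured binding site.

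A few facts of the libraries bear on all values. The tissue label was checked against markers of dentate granule, CA1 and CA3 cells, which were measured in all 9 libraries at the levels given further on. Middle-aged quercetin replicate 2 and young control replicate 3 stood apart by transcripts of the choroid plexus, the epithelium that makes cerebrospinal fluid: its main product Ttr was at 930 and 2390 FPKM in these libraries and at 1.08 to 28.3 FPKM in the other 7. Nnt, a mitochondrial enzyme gene that is disrupted in the C57BL/6J substrain and intact in C57BL/6N, was at 5.88, 6.31 and 6.35 FPKM in middle-aged quercetin, 5.89, 6.55 and 6.37 FPKM in middle-aged control and 10.9, 11.4 and 12.2 FPKM in young control libraries (middle-aged control over young control, log2 fold change −0.78, limma adjusted p = 0.000261). Nnt was named after its values were seen. The labels give the strain only as C57BL/6, so a substrain and age cannot be told apart in comparisons with young mice. In bulk tissue, fewer cells of a type and less RNA per cell cannot be told apart either.

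Gabra5 was the most abundant of the 7 transcripts and Gabrd the least. FPKM counts fragments relative to transcript length and to the library's total, so levels of different genes can be compared. Over all 9 libraries the mean was 73.4 FPKM for Gabra5, 43.8 FPKM for Gabrb2, 30.0 FPKM for Gabra4, 24.9 FPKM for Gabra2, 22.8 FPKM for Gabra3, 16.1 FPKM for Gabrb1 and 9.86 FPKM for Gabrd. Each gene exceeded the next in every library, except that Gabra2 exceeded Gabra3 in 8 of 9, and the ranges of these 2 neighbours overlap. Among the tested genes Gabra5 ranked 881st by mean FPKM and Gabrd 6877th.

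The Gabra5 product is the alpha subunit of the extrasynaptic receptors of hippocampal pyramidal cells and is known for its influence on learning. Gabra5 was at 71.9, 69.1 and 72.3 FPKM in middle-aged quercetin libraries, 82.0, 85.1 and 75.2 FPKM in middle-aged control libraries and 68.8, 71.2 and 65.4 FPKM in young control libraries. Every middle-aged control library was above every library of both other groups, which overlapped each other. The mean was 71.1 ± 1.75 FPKM in quercetin, 80.7 ± 5.08 FPKM in middle-aged control and 68.5 ± 2.92 FPKM in young control libraries (SD, n = 3 each).

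Gabra2, whose product mediates much of the anxiolytic action of benzodiazepines, was the steadiest of the 7. It was at 25.1, 24.4 and 24.8 FPKM in middle-aged quercetin, 24.3, 25.2 and 25.9 FPKM in middle-aged control and 24.5, 25.1 and 25.2 FPKM in young control libraries. All 3 groups overlapped, and the highest library was 1.06 times the lowest. The within-group SD of its log2 level was smaller than that of 96.9% of the tested genes.

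Gabra3 encodes an alpha subunit that is better known from monoaminergic neurons and the reticular thalamus. It was at 25.3, 23.7 and 21.8 FPKM in middle-aged quercetin, 23.7, 20.2 and 24.7 FPKM in middle-aged control and 21.2, 22.6 and 22.4 FPKM in young control libraries. The groups overlapped, and middle-aged control replicate 2 was the lowest of the 9. Its within-group SD was the largest of the 7 genes on the log2 scale, and 27.1% of the tested genes had a larger one.

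Gabra4, which partners Gabrd in dentate granule cells and gives receptors that classical benzodiazepines do not act on, was at 29.6, 30.8 and 28.0 FPKM in middle-aged quercetin, 33.2, 30.9 and 30.0 FPKM in middle-aged control and 30.0, 29.5 and 28.1 FPKM in young control libraries. The middle-aged control group held the 2 highest values and overlapped both other groups.

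**Figure D1:**
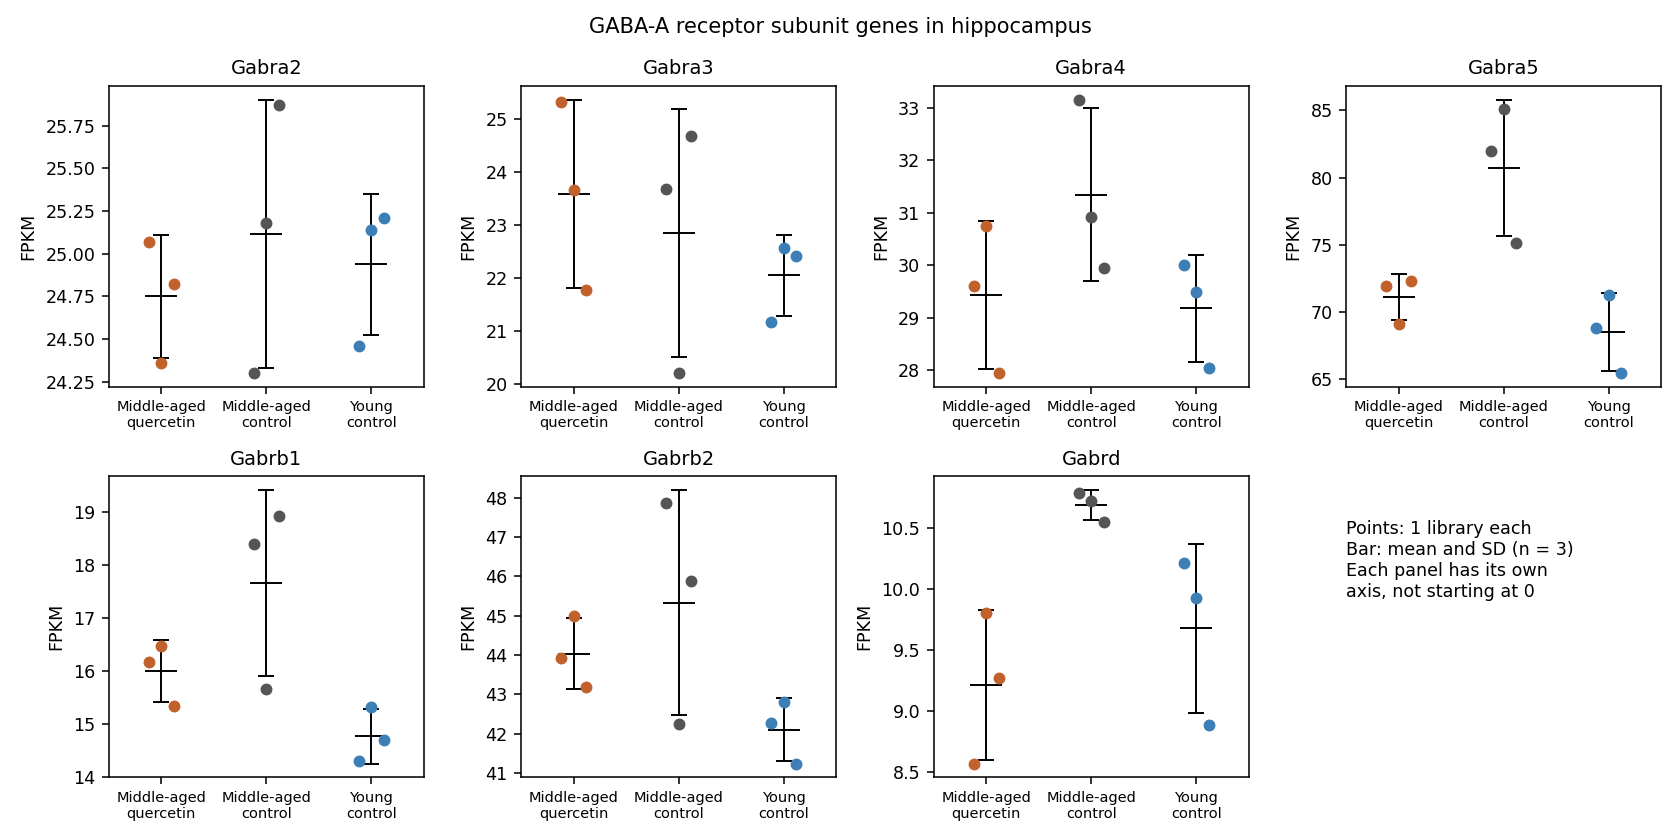
FPKM of the 7 subunit genes in each library (points), with group mean and SD (bars, n = 3), for middle-aged quercetin, middle-aged control and young control mice. Each panel has its own vertical axis that does not start at 0. For Gabra5 the middle-aged control points, at 75.2 to 85.1 FPKM, lie above all points of both other groups, while all 9 Gabra2 points lie between 24.3 and 25.9 FPKM.

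The beta subunits form part of the GABA site and bind proteins that hold receptors at the membrane. Gabrb1 was at 16.2, 16.5 and 15.3 FPKM in middle-aged quercetin, 18.4, 15.7 and 18.9 FPKM in middle-aged control and 14.3, 15.3 and 14.7 FPKM in young control libraries. Both middle-aged groups lay above the young control libraries without overlap, for quercetin by a margin of only 15.34 against 15.32 FPKM, and middle-aged control replicate 2 fell among the quercetin values.

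Gabrb2, which encodes the beta subunit of many synaptic receptors, was at 43.9, 45.0 and 43.2 FPKM in middle-aged quercetin, 47.9, 42.2 and 45.9 FPKM in middle-aged control and 42.3, 42.8 and 41.2 FPKM in young control libraries. The quercetin libraries lay above the young control libraries, whereas middle-aged control libraries overlapped both groups.

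Gabrd encodes the delta subunit, which takes the place of a gamma subunit in extrasynaptic receptors and confers a high sensitivity to neurosteroids. It was at 8.57, 9.80 and 9.27 FPKM in middle-aged quercetin, 10.8, 10.7 and 10.6 FPKM in middle-aged control and 10.2, 9.93 and 8.89 FPKM in young control libraries. The 3 middle-aged control values were the highest of the 9, with an SD of 0.123 FPKM, against 0.617 FPKM in quercetin and 0.696 FPKM in young control libraries.

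The first comparison asked what differs with age, middle-aged control over young control. None of the 7 genes passed limma's test at an adjusted p under 0.05, which 0.23% of all tested genes passed. All 7 log2 fold changes (of FPKM + 1) were above 0, with a median of 0.10 and a range of 0.01 to 0.24, and the median over all tested genes was −0.00492, with 47.9% of them above 0. Without middle-aged control replicate 3 the changes of Gabra2 (−0.011) and Gabra3 (−0.010) were below 0, and that of Gabra2 was also below 0 without young control replicate 1 (−0.0037). At an unadjusted p under 0.05, which 12.2% of tested genes had, there were 3 of the 7, Gabra5, Gabrb1 and Gabrb2. In Gabra5, Gabrb1 and Gabrd each middle-aged control library was above each young control library, a pattern that 8.81% of all tested genes showed.

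Gabra5 averaged 80.7 FPKM in middle-aged control and 68.5 FPKM in young control libraries, a ratio of 1.18. Its log2 fold change was 0.23 ± 0.0499 (SE), with a 95% confidence interval of 0.12 to 0.34 and an unadjusted p of 0.000718 (limma adjusted p = 0.0874). Of the tested genes, 5.79% had a larger change in either direction. Without the 2 libraries rich in choroid plexus transcripts the change was 0.20, with a limma adjusted p of 0.302.

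Gabrb1 averaged 17.7 FPKM in middle-aged control and 14.8 FPKM in young control libraries, a ratio of 1.20. Its log2 fold change was 0.24 ± 0.0654 (SE; 95% confidence interval 0.09 to 0.38), with a limma adjusted p of 0.179. Without middle-aged control replicate 2, the lowest of its group, the change was 0.32 and passed the test (limma adjusted p = 0.0377). Over the 19 alternatives the adjusted p for Gabrb1 ranged from 0.0377 to 0.431, and this was the only one in which any of the 7 genes passed. Without both choroid-rich libraries the change was 0.24, with a limma adjusted p of 0.387.

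The other 5 changes with age were smaller. Gabrd had a log2 fold change of 0.13 (95% confidence interval −0.0031 to 0.27, limma adjusted p = 0.42), and of 0.078 without both choroid-rich libraries (limma adjusted p = 0.694) or without young control replicate 3 alone (limma adjusted p = 0.72). Gabrb2 had 0.10 (0.0012 to 0.20, limma adjusted p = 0.404). Gabra4 had 0.10 (−0.01 to 0.21, limma adjusted p = 0.46). Gabra3 had 0.05 (−0.12 to 0.21, limma adjusted p = 0.856) and Gabra2 had 0.01 (−0.07 to 0.09, limma adjusted p = 0.944). For Gabra2 the interval spans folds of 0.950 to 1.07, so a larger change in either direction lies outside it.

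The second comparison asked what differs with quercetin, middle-aged quercetin over middle-aged control. It uses the same 3 middle-aged control libraries as the age comparison, so a high value in one of them raises the age difference and lowers the quercetin difference at once. None of the 7 genes passed limma's test (0.168% of all tested genes did). The log2 fold change was below 0 for 6 of the 7 and above 0 for Gabra3, with a median of −0.09, against 0.00609 over all tested genes. Gabra2 was just above 0 without middle-aged control replicate 3 (0.00068), and Gabrb2 without middle-aged control replicate 1 (0.00019). An unadjusted p under 0.05 was found for 2 of the 7, Gabra5 and Gabrd, and for 11.7% of tested genes. In these 2 genes each quercetin library was below each middle-aged control library, as in 7.35% of all tested genes.

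Gabra5 averaged 71.1 FPKM in quercetin and 80.7 FPKM in middle-aged control libraries, a ratio of 0.881. Its log2 fold change was −0.18 ± 0.0499 (SE; 95% confidence interval −0.29 to −0.07, unadjusted p = 0.00435, limma adjusted p = 0.211), and over the alternatives the change lay between −0.23 and −0.14. Gabrd averaged 9.21 FPKM in quercetin and 10.7 FPKM in middle-aged control libraries, a ratio of 0.862. Its log2 fold change was −0.20 ± 0.0614 (SE; 95% confidence interval −0.33 to −0.06, unadjusted p = 0.00877, limma adjusted p = 0.266), and over the alternatives it lay between −0.24 and −0.15. Of the tested genes, 9.13% had a larger change than Gabra5 and 7.30% a larger change than Gabrd. Without both choroid-rich libraries Gabra5 had −0.16 (limma adjusted p = 0.481) and Gabrd had −0.24 (limma adjusted p = 0.321).

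The remaining values for quercetin were closer to 0. Gabrb1 had a log2 fold change of −0.13 (95% confidence interval −0.28 to 0.01, limma adjusted p = 0.477) and Gabra4 of −0.09 (−0.20 to 0.02, limma adjusted p = 0.548). Gabrb2 had −0.04 (−0.14 to 0.06, limma adjusted p = 0.792), Gabra2 had −0.02 (−0.10 to 0.06, limma adjusted p = 0.881) and Gabra3 had 0.05 (−0.12 to 0.21, limma adjusted p = 0.854). The sign for Gabra3 turned when 1 library was left out, with −0.036 without middle-aged control replicate 2 and −0.0045 without middle-aged quercetin replicate 1.

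**Figure D2:**
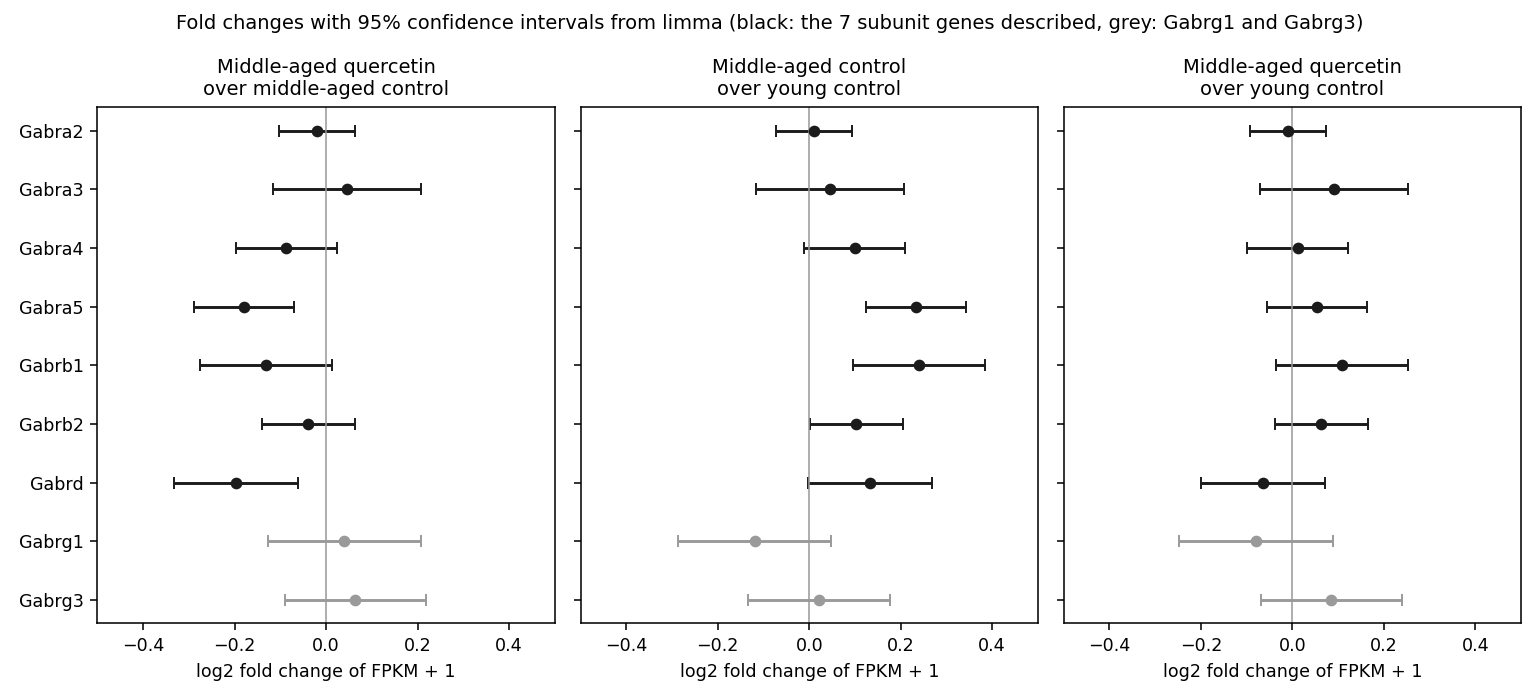
Log2 fold change of FPKM + 1 with 95% confidence interval from limma, for the 7 subunit genes (black) and for Gabrg1 and Gabrg3 (grey), in the 3 comparisons (columns). The age intervals of Gabra5 (0.12 to 0.34) and Gabrb1 (0.09 to 0.38) and the quercetin intervals of Gabra5 (−0.29 to −0.07) and Gabrd (−0.33 to −0.06) lie clear of 0 before adjustment, as does that of Gabrb2 with age (0.0012 to 0.20), and the others span it.

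The third comparison set middle-aged quercetin over young control libraries. None of the 7 genes passed limma's test (0.0766% of all tested genes did), none had an unadjusted p under 0.05 (6.3% of tested genes did), and the log2 fold changes ran between −0.06 for Gabrd and 0.11 for Gabrb1, with a median of 0.05 against 0.00265 over all tested genes. Gabrb1 (quercetin 15.34 to 16.5 FPKM, young control 14.3 to 15.32 FPKM) and Gabrb2 (quercetin 43.2 to 45.0 FPKM, young control 41.2 to 42.8 FPKM) were higher in every quercetin library, as were 6.45% of tested genes. Gabra5 had a log2 fold change of 0.05, with a 95% confidence interval of −0.06 to 0.16 (limma adjusted p = 0.899). This group pair too shares its libraries with the comparisons above.

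Summed over the 7 genes, FPKM was 218 ± 3.13 in middle-aged quercetin (215 to 221), 234 ± 5.62 in middle-aged control (230 to 240) and 211 ± 5.28 in young control libraries (206 to 216) (SD, n = 3 each). The middle-aged control sums did not overlap those of either other group. The sum weighs abundant genes most, and its largest part was Gabra5. Gabra5 averaged 71.1 FPKM in quercetin, 80.7 FPKM in middle-aged control and 68.5 FPKM in young control libraries, and alone gave the same separation. The sum is thus not a separate sign of a shift in all 7 genes.

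Among the 4 alpha genes Gabra5 held the largest share of the summed FPKM in every library. Its share was 47.8% ± 1.3 in middle-aged quercetin, 50.4% ± 2.22 in middle-aged control and 47.3% ± 0.852 in young control libraries (SD, n = 3 each). The middle-aged control shares ran between 48.3% and 52.7%, above the young control range of 46.4% to 48.0% and overlapping the quercetin range of 46.7% to 49.2%. The ratio of Gabra5 to Gabra2 was 2.84 to 2.91 in quercetin, 2.90 to 3.38 in middle-aged control and 2.60 to 2.83 in young control libraries. That of Gabrd to its partner Gabra4 was 0.289 to 0.332 in quercetin, 0.325 to 0.352 in middle-aged control and 0.317 to 0.340 in young control libraries, so these ranges overlapped. That of Gabrb1 to Gabrb2 was 0.355 to 0.368 in quercetin, 0.371 to 0.412 in middle-aged control and 0.338 to 0.358 in young control libraries. Here the middle-aged control range lay above both others, by a margin of 0.371 against 0.368. That of Gabrb1 to Gabra4 was 0.536 to 0.549 in quercetin, 0.506 to 0.632 in middle-aged control and 0.476 to 0.524 in young control libraries, and the middle-aged control range overlapped both others. How often such ratios separate was not examined.

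**Figure D3:**
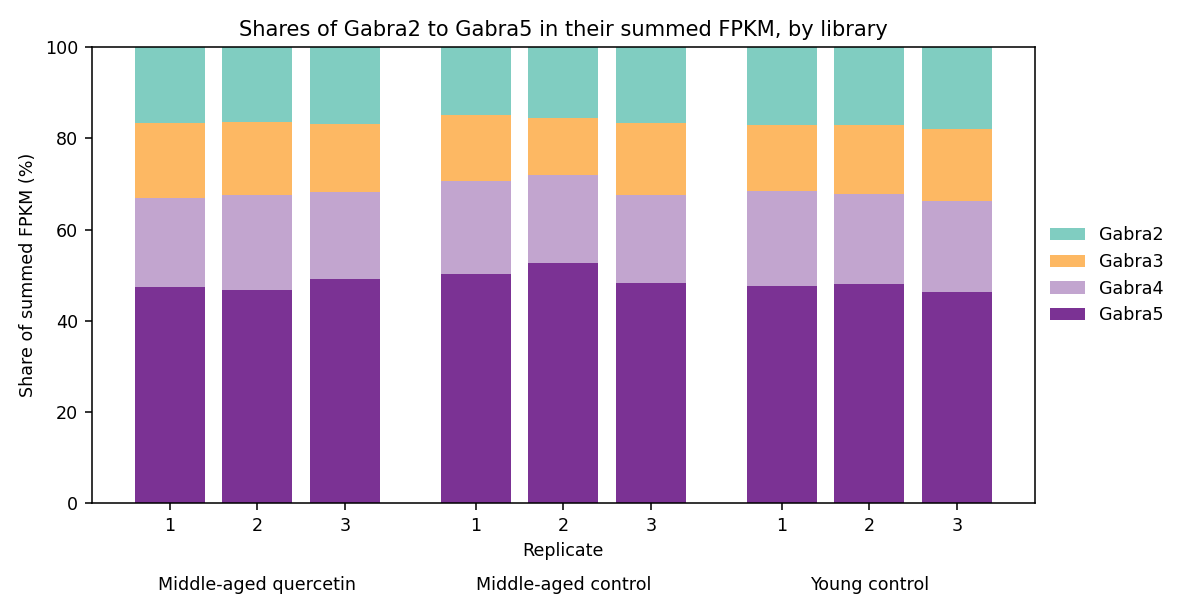
Share of Gabra2, Gabra3, Gabra4 and Gabra5 in their summed FPKM, in percent, for each of the 9 libraries (bars), grouped as middle-aged quercetin, middle-aged control and young control. The Gabra5 share is 46.4% to 52.7% and is the largest in every library.

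Of 9 other subunit genes of the family examined, 2 passed the filter, Gabrg1 and Gabrg3, which encode gamma subunits. Gabrg1 averaged 5.68 FPKM in quercetin, 5.48 FPKM in middle-aged control and 6.04 FPKM in young control libraries, and Gabrg3 averaged 3.25 FPKM in quercetin, 3.06 FPKM in middle-aged control and 3.00 FPKM in young control libraries. Their groups overlapped in every comparison, 0 of the 2 were called by limma and 0 had an unadjusted p under 0.05. Limma called 0.23% of all tested genes with age, 0.168% with quercetin and 0.0766% for quercetin against young. An unadjusted p under 0.05 was found for 12.2% with age, 11.7% with quercetin and 6.3% for quercetin against young. Gabra6, Gabre, Gabrp, Gabrq, Gabrr1, Gabrr2 and Gabrr3 stayed at or below 0.69 FPKM in every library and were not tested.

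Genes that act with the receptor showed no limma calls in any comparison. Limma called 0.23% of all tested genes with age, 0.168% with quercetin and 0.0766% for quercetin against young, so short lists without a call are near that share. Of 23 genes for anchoring and trafficking of the receptor, all tested, 2 had an unadjusted p under 0.05 with age, 3 with quercetin and 0 for quercetin against young. Of all tested genes, 12.2% had such a p with age, 11.7% with quercetin and 6.3% for quercetin against young. The median log2 fold change of the 23 genes was −0.02 with age and 0.01 with quercetin. The most abundant was Nsf, an ATPase of membrane fusion, which averaged 308 FPKM in quercetin, 326 FPKM in middle-aged control and 314 FPKM in young control libraries. The 9 genes for synthesis, transport and breakdown of GABA had medians of −0.02 with age and −0.01 with quercetin, and 0 of them had an unadjusted p under 0.05 in any comparison. The GABA-synthesizing enzyme Gad1 averaged 126 FPKM in quercetin, 120 FPKM in middle-aged control and 121 FPKM in young control libraries.

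Genes of the chloride gradient and of the metabotropic GABA-B receptor likewise gave no calls. The share called of all tested genes was 0.23% with age, 0.168% with quercetin and 0.0766% for quercetin against young. The counts at an unadjusted p under 0.05 that follow stand beside shares of all tested genes. These were 12.2% with age, 11.7% with quercetin and 6.3% for quercetin against young. The 6 chloride transport genes had medians of 0.03 with age and 0.02 with quercetin, with 0 at an unadjusted p under 0.05 with age, 1 with quercetin and 2 for quercetin against young. Slc12a5, which extrudes chloride from neurons, lay between 95.2 and 105 FPKM over all libraries. The 5 GABA-B receptor genes had medians of 0.02 and −0.01, with 1 at an unadjusted p under 0.05 with age, 1 with quercetin and 0 for quercetin against young, and Gabbr1, a subunit of that receptor, lay between 147 and 154 FPKM. Of 6 genes of neurosteroid and endozepine supply 5 were tested, with medians of −0.07 with age and 0.06 with quercetin, and 1 had an unadjusted p under 0.05, with quercetin. That was Dbi, whose peptide binds GABA-A receptors, at 114, 124 and 112 FPKM in quercetin, 90.0, 103 and 109 FPKM in middle-aged control and 93.7, 115 and 108 FPKM in young control libraries. Its quercetin difference of 0.22 did not pass (limma adjusted p = 0.332).

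Markers of hippocampal fields and of neighbouring tissue also differed between libraries, beside the values of Gabra5 and Gabrd. The summed FPKM of 9 dentate granule markers was 141 to 143 in quercetin, 145 to 151 in middle-aged control and 137 to 146 in young control libraries, and 6 of the 9 had a log2 fold change above 0 with age and 2 of the 9 with quercetin. C1ql2, a dentate marker active at mossy fibre synapses that was named after its values were seen, was at 32.6, 29.7 and 35.1 FPKM in quercetin, 36.8, 38.5 and 40.3 FPKM in middle-aged control and 32.6, 34.4 and 32.3 FPKM in young control libraries. It was thus highest in middle-aged control libraries. Its log2 fold change was 0.21 with age (limma adjusted p = 0.179) and −0.24 with quercetin (limma adjusted p = 0.154). Calb1, the most abundant dentate marker, instead averaged 39.8 FPKM in quercetin, 37.1 FPKM in middle-aged control and 37.9 FPKM in young control libraries. The sum of 7 CA1 markers was 178 to 188 FPKM in quercetin, 187 to 206 FPKM in middle-aged control and 200 to 202 FPKM in young control libraries. All quercetin sums thus lay below the young control sums. Of these 7 genes, 4 had a log2 fold change above 0 with age, 1 with quercetin and 0 for quercetin against young. The sum of 5 CA3 markers was 56.9 to 59.5 FPKM in quercetin, 55.4 to 74.1 FPKM in middle-aged control and 57.5 to 63.2 FPKM in young control libraries. Of these 5 genes, 3 were above 0 with age, 1 with quercetin and 0 for quercetin against young.

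Markers of thalamus and cortex, tissues that border the hippocampus, were also detected. The sum of 8 thalamus markers was 23.2 to 39.8 FPKM in quercetin, 19.1 to 21.9 FPKM in middle-aged control and 23.6 to 36.4 FPKM in young control libraries. That of 8 cortex markers was 33.8 to 36.3 FPKM in quercetin, 26.3 to 34.2 FPKM in middle-aged control and 32.2 to 38.1 FPKM in young control libraries. With age, 2 of the 7 tested thalamus genes and 0 of the 5 tested cortex genes had a log2 fold change above 0. With quercetin these were 7 of 7 and 5 of 5, and for quercetin against young 4 of 7 and 2 of 5. Of all tested genes, 47.9% were above 0 with age, 53.0% with quercetin and 51.6% for quercetin against young. The middle-aged control libraries, in which Gabra5 and Gabrd were highest, had the lowest thalamus sums. The 2 highest, 39.8 and 36.4 FPKM, were in middle-aged quercetin replicate 2 and young control replicate 3, the choroid-rich libraries. Prkcd, the most abundant thalamus marker, overlapped between the groups in every comparison. The part of tissue make-up in the subunit values was not tested.

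Cell classes that could be mixed in different amounts were compared in the same way. Pan-neuronal markers (6 genes) summed to 2383 to 2545 FPKM in quercetin, 2482 to 2553 FPKM in middle-aged control and 2434 to 2496 FPKM in young control libraries, with all groups overlapping. Interneuron markers (10 genes) summed to 424 to 467 FPKM in quercetin, 409 to 437 FPKM in middle-aged control and 420 to 453 FPKM in young control libraries. Astrocyte markers (6 genes) summed to 682 to 699 FPKM in quercetin, 685 to 691 FPKM in middle-aged control and 612 to 666 FPKM in young control libraries. The astrocyte sums of both middle-aged groups thus lay above those of young control libraries. So did those of 5 microglia markers (52.8 to 59.3 FPKM in quercetin, 54.4 to 61.4 FPKM in middle-aged control and 51.4 to 52.6 FPKM in young control libraries). With age, 3 of the 6 astrocyte genes and 5 of the 5 microglia genes had a log2 fold change above 0. For quercetin against young these were 6 of 6 and 5 of 5. Slc1a2, the most abundant astrocyte marker, overlapped between the groups in every comparison. The sums of oligodendrocyte (6 genes) and endothelial markers (4 genes) overlapped between all groups. Ly6c1, the most abundant endothelial marker, was at 21.6 to 24.4 FPKM in quercetin, 15.7 to 20.0 FPKM in middle-aged control and 21.2 to 22.4 FPKM in young control libraries. Its log2 fold change was −0.26 with age (limma adjusted p = 0.232) and 0.31 with quercetin (limma adjusted p = 0.177). Of the 4 endothelial genes, 2 were above 0 with age and 2 with quercetin. No gene of any marker list was at 0 in all libraries, and limma called none of them in any comparison. Of all tested genes it called 0.23% with age, 0.168% with quercetin and 0.0766% for quercetin against young. Lists this short without a call are thus near the share over all genes.

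**Figure D4:**
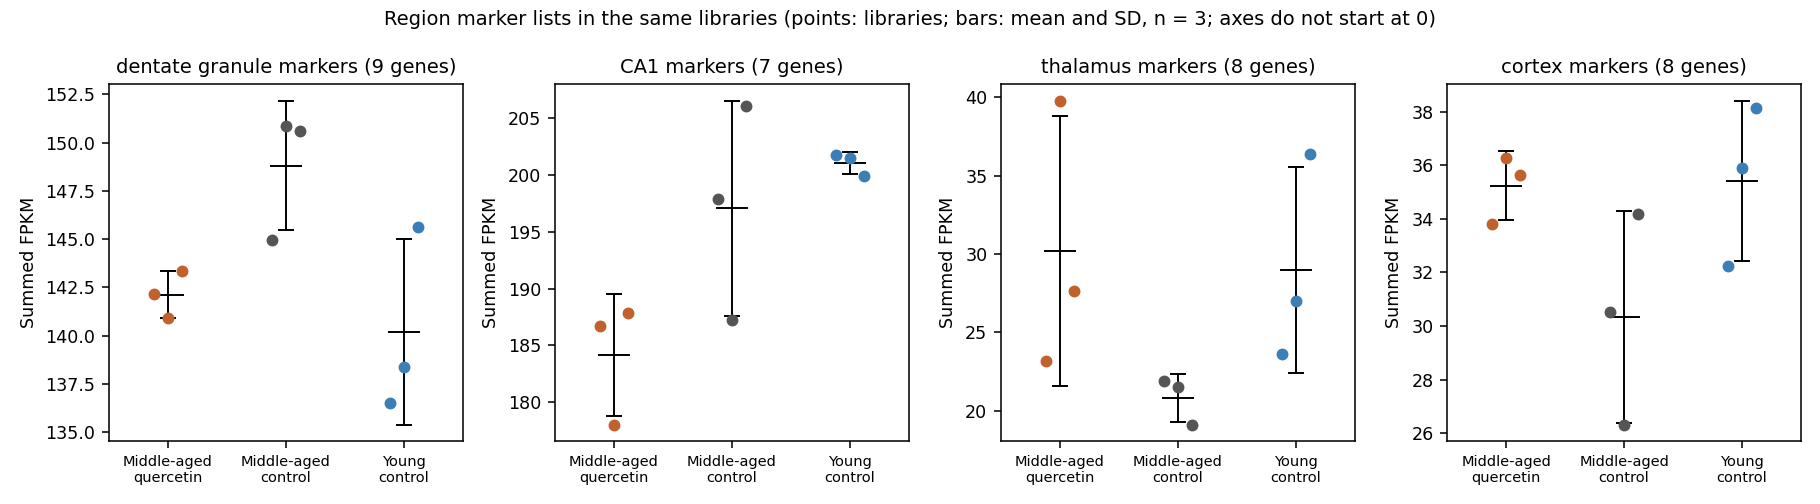
Summed FPKM of marker lists for dentate granule cells, CA1, thalamus and cortex in each library (points), with group mean and SD (bars, n = 3), for middle-aged quercetin, middle-aged control and young control mice; the axes do not start at 0. Thalamus sums of middle-aged control libraries, 19.1 to 21.9 FPKM, lie below those of both other groups, and dentate sums overlap between middle-aged and young control libraries.

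For each of the 7 genes the tested genes with the most similar pattern over the 9 libraries were sought, by the root mean square difference of standardized log2 levels (0 for identical patterns), whose median over all tested genes was 1.41 to 1.44. The nearest to Gabra5 were Rab12, a small GTPase (0.206), Plk5, a polo-like kinase (0.263), and Neto1, an auxiliary protein of glutamate receptors (0.327). Plk5 is also in the list of dentate granule markers used above. Among the 7 genes the nearest to Gabra5 was Gabra4 (0.809), and Gabrb1 and Gabrb2 were nearest to each other (0.428). The nearest of all genes to Gabrb1 were Lnpep, an aminopeptidase (0.154), the tankyrase gene Tnks (0.202) and the ubiquitin ligase gene Ube3a (0.256), and the nearest to Gabrb2 were Usf3 (0.247), Pura (0.269) and Birc6 (0.278). Gabrd was nearest to Dnaaf2 (0.327), the phosphatase gene Dusp1 (0.346) and Bahcc1 (0.364), and Gabra4 to Ints6 (0.269), Stx3 (0.344) and Pla2g4e (0.371). Gabra3 was nearest to Dync1li2 (0.283), Pcdh7 (0.337) and the synaptic vesicle protein gene Sv2a (0.338), and Gabra2 to Aifm2 (0.368), Psmg4 (0.431) and B9d2 (0.443). With 9 libraries and 13062 genes to choose from, close patterns are found for any gene, and these are descriptions only.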

How the data were processed

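Hippocampal RNA was sequenced by the study from 9 libraries (total RNA selected with oligo(dT)). The authors deposited FPKM values with 2 decimals in 1 table of 22173 genes, 18798 of them with values, and no read counts were used here. TopHat2, Cufflinks and GRCm38 are listed in the submitters' processing notes, and HISAT2, Bowtie2 and RESM in the study's methods. The sources do not say from which of them the FPKM came. FPKM carries no absolute depth, so the depth of each library is unknown. Relative depths estimated from the steps of low values were 0.985 to 1.01 (123 to 158 genes per library), from values near each gene's smallest nonzero value, which holds them close together in advance.

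Groups came from the sample labels. The 13062 genes that reached 1 FPKM in 3 or more libraries were fitted as log2(FPKM + 1) in 1 limma model of the 9 libraries (limma 3.58.1 in R 4.3.3), with trended empirical Bayes moderation. The 3 contrasts were each adjusted by Benjamini-Hochberg over these genes (threshold 0.05). Fold changes of low genes are understated on this scale. Alternatives were a pseudocount of 0.1, dropping the filter, a filter at a mean of 5 FPKM, 2 scalings, fits of 6 libraries, a replicate block, 2 other limma settings, each library left out, and both choroid-rich libraries left out. The test was checked on simulated data (10 runs with 200 changed genes). Named genes are the 7 members, 9 other GABA-A subunit genes, called genes and the most abundant gene of each list, and the 3 nearest patterns per member. Nnt and C1ql2 fall outside this rule and were named after their values were seen. Some subunit genes are not reported here. Members and lists were chosen with earlier results of these data known. Coordinates and promoters are from RefSeq (GRCm38.p6) and exons from GENCODE M21. Plots were made in matplotlib 3.10.9 under Python 3.11.15.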

Additional observations from a re-analysis of the deposited data

How the results depend on the processing

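None of the 7 genes was called in any of the 3 comparisons under any of the 19 alternatives, with 1 exception: without middle-aged control replicate 2, 1 gene (Gabrb1) was called with age, so that leaving out 1 library gave 0 to 1 called genes there. Its log2 fold change was then 0.32. The signs of Gabra5, Gabrb1, Gabrd and Gabra4 with age and with quercetin held under all 19. The quercetin difference of Gabra3 ranged between −0.036 and 0.10 with 1 library left out, the lowest being without middle-aged control replicate 2, and that of Gabra4 for quercetin against young was −0.047 without both libraries rich in choroid plexus transcripts. The cause was not tested. The other 2 scalings moved the median of all genes by at most 0.01.

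The counts over all genes, which set the background of these tests, depended more on the processing. With age, 30 genes were called, against 17 with no filter (more genes tested), 66 at a mean of at least 5 FPKM, 17 without the trend, 9 without both choroid-rich libraries, and 12 (without middle-aged control replicate 1) to 47 (without middle-aged control replicate 2) with 1 library left out. With quercetin, 22 were called, against 1 with no filter, 14 in a fit of 6 libraries, 2 without the trend, 1 without both choroid-rich libraries, and 3 (without middle-aged control replicate 1 or middle-aged quercetin replicate 2) to 29 (without young control replicate 3) with 1 library left out. For quercetin against young, 10 were called, against 4 with no filter, 4 in a fit of 6 libraries, 4 without both choroid-rich libraries, and 4 (without young control replicate 3) to 7 (without middle-aged control replicate 3) with 1 library left out. With a replicate block the counts were 20 with age, 13 with quercetin and 6 for quercetin against young, and 0 of the 7 genes were called. The labels do not say whether equal replicate numbers pair the libraries. Of 9 equal-numbered pairs, 1 had a correlation over 0.1. A library correlated best with its own number in 6 of 18 cases, each with 3 libraries to choose from. These correlations cannot exclude a pairing in the design.

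Differences of up to 0.24 on the log2 scale did not pass the adjusted test, which does not show that the groups are alike. The depth of the libraries is unknown.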
